A study of Mus musculus and synthetic construct with 21 samples.

Results

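Among the designed enhancer elements of pools 1 and 3, 321 c sites were more active with their native motif than with the motif altered, by at least 0.75 on the log2 scale. They were chosen from 2029 c sites measured in both forms, of 2250 c sites in the 2 pools, and the 2 forms of the members make up 642 of 9000 elements. Pool 1 gave 38 members of 737 measured c sites (5.16%), and pool 3 gave 283 of 1292 (21.9%). For each barcode with 20 or more plasmid counts, 1 was added to the RNA and to the plasmid count, both were divided by their library totals, and the log2 of their ratio was taken. The activity of an element is the median of these values, and each form needed 5 or more such barcodes. A value of 0 is an element with the same share of the RNA as of the plasmid library, and levels were not compared between pools. Because the activity difference chose the members, its size is a description here and carries no test.

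All elements were assayed in 3T3-L1, a mouse pre-adipocyte line that forms adipocytes in culture, induced with insulin (1.7 µM), dexamethasone (1 µM) and the phosphodiesterase inhibitor IBMX (0.5 mM). In this massively parallel reporter assay each element drives a transcript with a 16 bp barcode, and RNA taken 16 h after transfection is set against the plasmid library. Pool 1 (9 barcodes per element) had 34801803 RNA and 48330091 plasmid counts, and pool 3 (15 barcodes) had 37267216 and 56246463. For pool 1, chromatin immunoprecipitation (ChIP) with an antibody to PPARγ, also 16 h after transfection, gave 1987761 counts against 1381624 in the input. Names in the pools carry a site class (w or c), a site number, a form (t or d) and a 16-base motif with its mouse mm9 position. What the codes stand for is not stated in the names: t is read here as the native form and d as an altered motif, whose sequence the names do not give. Each library was made once, so no comparison has a replicate culture. Spreads over barcodes come from 1 transfection and are not replicates of a condition, and the reads carry no molecular identifiers, so counting errors cover counting alone.

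PPARγ is the nuclear receptor that directs adipocyte differentiation. It binds DNA as a heterodimer with RXR at DR1 elements, direct repeats of the hexamer AGGTCA with 1 base between them. An element that carries such a motif can still differ in output, since other transcription factors bind the surrounding sequence.

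The motifs of pool 1 members are shown first, because at each pool 1 number the c and the w site carry the same 16 bases (750 of 750 numbers) in different surroundings. Capitals mark the bases that match AGGTCANAGGTCA, which lies over bases 4 to 16. Sites 142, 46, 356 and 609 had the largest differences, sites 35, 501 and 494 the closest matches, and sites 529 and 687, with site 501, the largest differences in PPARγ binding.
Pool 1 site 142, chr1:88631761-88631776, minus strand: tctgGGcaAaAGGgtA
Pool 1 site 46, chr4:135057690-135057705, plus strand: actgtGatAaAGGTCt
Pool 1 site 356, chr10:118528665-118528680, minus strand: agtgGGaCAagGGTaA
Pool 1 site 609, chrX:24222639-24222654, plus strand: tgtAGGTaAagGGTCA
Pool 1 site 35, chr6:102373284-102373299, plus strand: agtAGGTCAgAaGTCA
Pool 1 site 501, chr8:81604405-81604420, plus strand: tccAGGaCAaAGGTCA
Pool 1 site 494, chr11:30148237-30148252, plus strand: acaAGGTCAaAGGTCt
Pool 1 site 529, chr8:35896565-35896580, minus strand: actgGGgCAaAGGgCA
Pool 1 site 687, chr11:118731991-118732006, plus strand: tatAGGgtgaAGGTCA

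The pool 3 motifs shown are those of the members with the most active native forms, sites 1401, 488, 935, 480, 516 and 252, a choice made after their values were seen, and of site 959, whose barcodes did not overlap between forms. In pool 3 the c and the w site of a number carried the same 16 bases at 0 of 1500 numbers.
Pool 3 site 1401, chr16:55617878-55617893, plus strand: aagActaCAgAGGTCA
Pool 3 site 488, chr1:5522029-5522044, plus strand: aaagGtcCAgAGtTCA
Pool 3 site 516, chrX:126808090-126808105, plus strand: aaagGtcCAgAGtTCA
Pool 3 site 935, chr7:34820754-34820769, plus strand: gaagGtcCAgAGtTCA
Pool 3 site 480, chr9:54947893-54947908, plus strand: tggAGGcCAgAGGTCA
Pool 3 site 252, chr11:44959373-44959388, minus strand: aatgGGTCAaAaGTCA
Pool 3 site 959, chr13:35624358-35624373, plus strand: acaAGagCAaAGGTCA

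The native and altered levels make up the difference that chose the members, so they are described only. The pool 1 members were mostly c sites with an unusually active native form. Their native median was 0.16, against -0.56 over all 737 c sites, and 25 of 38 members (65.8%) had a native level above 0, against 51 of 737 c sites (6.92%). Their altered median was -0.76, against -0.62 over all c sites. The native level lay in the top 10% of native c elements (-0.09 or more) at 30 members, and the altered level lay in the bottom 10% of altered c elements (-0.94 or less) at 11, with 3 members in both sets and 0 in neither. The members had a median difference of 0.98 and a highest of 2.23, and the same size in the other direction, -0.75 or less, was met by 13 c sites (1.76%). At those 13 c sites the native median was -0.94 and the altered median 0.28. At w sites, 275 of 731 (37.6%) reached 0.75.

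Site 142, on chromosome 1, had the largest difference in pool 1. Its 9 native barcodes ran from 0.79 to 1.76 with a median of 1.35 (SD 0.28), and its 9 altered barcodes from -1.61 to -0.18 with a median of -0.88 (SD 0.43). Every native barcode was above every altered one, and the medians differed by 2.23, a ratio of 4.69. This site has 5 mismatches to the DR1 consensus, and 4 to AGGTCA copies with 2 bases between them. Of 16 pool 1 c sites closer to that spacing than to DR1, 1 was a member (6.25%), against 5.16% of all measured c sites.

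Site 46, on chromosome 4, followed at 1.81 with native barcodes from -0.98 to 1.84 (median 1.10, n = 9) and altered barcodes from -1.83 to 0.51 (median -0.72, n = 9). Its forms overlapped. At site 356, on chromosome 10, the native barcodes ran from 0.66 to 1.81 (median 1.54) and the altered barcodes from -0.49 to 1.17 (median 0.09), with 9 in each form, a difference of 1.45. Its native median was the highest of any pool 1 member, and its altered median was 1 of 2 among the members above 0.

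Site 609, on chromosome X, had native barcodes from 0.61 to 2.06 (median 1.22) and altered barcodes from -1.06 to 0.48 (median -0.21), 9 in each form, a difference of 1.43 with no overlap. The other members without overlap were site 4 on chromosome 6 (native -0.66 to 0.76, median -0.32, n = 7, and altered -2.26 to -0.68, median -1.39, n = 8) and site 638 on chromosome 16 (native 0.88 to 1.57, median 1.21, n = 5, and altered -1.14 to 0.83, median 0.23, n = 8). These 4 were all the c sites of pool 1 in which every native barcode exceeded every altered one (4 of 737, 0.543%), and the reverse held at 1 c site. Sites 4 and 638 had among the lowest plasmid coverage of the members, with native totals of 2172 and 1904 counts against a median of 14377.5 over members.

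The remaining 7 of the 12 largest differences in pool 1 ran from 1.36 at site 350 (chr11:51313493-51313508) and 1.24 at site 529, through 1.14 at site 208, 1.12 at site 26, 1.12 at site 166 and 1.10 at site 35, to 1.09 at site 592. Their native medians spanned -0.17 at site 166 to 1.13 at site 350, and the barcode ranges of their 2 forms overlapped at each. Site 26 had 1 of the widest spreads, with native barcodes from -1.10 to 2.48 (SD 1.17, n = 7). Just inside the threshold lay sites 494 (0.78), 516 (0.77) and 100 (0.77), and just outside it sites 392 (0.7496), 109 (0.74) and 476 (0.72).

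In pool 3 too, both levels are part of the rule and are described only. By medians, the members there lay further from all c sites in the altered form than in the native form. Their native median was -0.71, against -0.92 over all 1292 c sites, and their altered median was -2.09, against -1.02. Native levels above 0 were measured at 37 of 283 members (13.1%) and at 53 of 1292 c sites (4.10%). The native level was in the top 10% (-0.36 or more) at 73 members and the altered level in the bottom 10% (-2.45 or less) at 106, with 9 in both and 113 in neither. The median difference was 1.39 and the highest 4.55, while 178 c sites (13.8%) were at -0.75 or less and 514 of 1308 w sites (39.3%) at 0.75 or more. At those 178 c sites the low form was the native one, with a median of -1.96 against an altered median of -0.69.

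Coverage in pool 3 was lower at members than over all c sites, and lower also at the 178 c sites at -0.75 or less. The altered forms of members had a median of 10 barcodes and 1833 plasmid counts, against 12 barcodes and 4401 counts over all c sites. An altered barcode with 0 RNA counts occurred at 214 of 283 members (75.6%) and at 629 of 1292 c sites (48.7%), whereas in pool 1 it occurred at 0 of 38 members and 1 of 737 c sites. At the 178 pool 3 c sites at -0.75 or less, native forms had a median of 11 barcodes and 2292 plasmid counts. Over all c sites there, native forms had 13 barcodes and 6823 counts. A native barcode with 0 RNA counts occurred at 130 of these 178 and at 503 of 1292 c sites. The SD over altered barcodes had a median of 2.19 at pool 3 members and 1.74 at all c sites there, against 0.70 and 0.62 in pool 1. With a minimum of 100 plasmid counts per barcode, 161 c sites passed, of which 132 were among the 283. With counts summed over barcodes 167 passed, of which 105 were among the 283. The part of coverage in the differences of single pool 3 members was not tested.

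Site 1401, on chromosome 16, combined a large difference with separate barcodes. Its 14 native barcodes ran from 1.75 to 3.85 with a median of 3.27, the highest native level of any pool 3 c site measured in both forms, and its 14 altered barcodes from -3.01 to 0.66 with a median of -0.78. The difference was 4.05. Site 959, on chromosome 13, was the other member without overlap: its 15 native barcodes ran from 0.22 to 2.17 (median 0.96) and its 15 altered barcodes from -5.11 to -0.05 (median -0.82), a difference of 1.78. These were the 2 such c sites of 1292 (0.155%), and the reverse occurred at 0.

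Several of the other largest differences in pool 3 rested on few barcodes. Site 234 (chr9:27021632-27021647) had the largest, 4.55, with 11 native barcodes from -1.92 to 1.05 (median 0.16). Its altered form had 6 barcodes from -5.19 to -0.41 (median -4.38) with 378 plasmid counts in all, and 3 of them had 0 RNA counts. Site 197 (chrX:101501240-101501255), at 4.08, had a native median of -1.05 over 8 barcodes and an altered median of -5.13 over 5. The native forms at both sites were thus far below that of site 1401.

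Site 480, at 3.68, had a native median of 1.85 (range -2.68 to 3.62) over 7 barcodes with 746 plasmid counts, and an altered median of -1.83 (range -5.05 to 0.69) over 11. Sites 884 (3.81), 741 (3.75), 1457 (3.32) and 617 (3.23) had altered medians from -4.43 at site 1457 to -1.83 at site 617. Their altered forms had 7, 7, 8 and 10 barcodes. Sites 935 and 488 had more altered barcodes, 1 of them at 0 RNA counts at each site. Site 935 had a native median of 2.20 (range -2.51 to 3.17, n = 13) and an altered median of -1.45 (range -6.98 to 0.79, n = 15), a difference of 3.65. Site 488 had a native median of 2.55 (range 0.16 to 3.39, n = 13) and an altered median of -0.62 (range -5.49 to 2.27, n = 14), a difference of 3.17. Their barcode ranges overlapped. Just inside the pool 3 threshold lay sites 936 (0.7548), 833 (0.7503) and 835 (0.7502), and just outside it sites 993 (0.7457), 1292 (0.7456) and 1306 (0.7444).

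To read the difference in values that had not chosen the sites, c sites were chosen at 0.75 or more in the odd-numbered barcodes of each element and read in the even-numbered ones, and the reverse, with at least 3 barcodes per form in each set. In pool 1, 57 of 678 sites chosen in odd barcodes had a median of 1.00 there and 0.30 in the even barcodes, and 62 chosen in even barcodes had 1.03 there and 0.27 in the odd ones. The sites read at 0.75 or more in the unused barcodes numbered 14 of 57 (24.6%) and 14 of 62 (22.6%), against 9.15% and 8.41% of all 678. The medians of all sites in the same barcodes were 0.07 and 0.10, so the chosen sites were above them but far below their own values in the barcodes that chose them. Sites chosen at -0.75 or less gave -0.24 (n = 30) and 0.09 (n = 37) in the unused barcodes.

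In pool 3 the same reading gave medians of 1.39 and 0.43 for 257 sites of 1114, and 1.39 and 0.19 for 299 sites. In the unused barcodes 96 of 257 (37.4%) and 96 of 299 (32.1%) were at 0.75 or more, against 26.8% and 23.1% of all sites. The medians of all sites were 0.09 and 0.10. Sites chosen at -0.75 or less gave 0.16 and 0.08 in the unused barcodes, and 57 of 172 (33.1%) and 49 of 195 (25.1%) of them were at 0.75 or more there. In pool 3, sites chosen in either direction thus reached 0.75 in the unused barcodes at shares not far apart.

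Among the members measured in both sets of barcodes, 13 of 31 in pool 1 and 93 of 213 in pool 3 were at 0.75 or more in both, and 30 of 31 and 166 of 213 were above 0 in both. Since all barcodes chose the members, these counts are descriptions. Site 142 read 2.13 and 2.36 in odd and even barcodes and site 609 read 1.36 and 1.35. Site 1401 read 3.94 and 3.99, site 935 read 3.34 and 4.31, and site 488 read 3.34 and 2.95.

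A second reading came from pool 1 places entered under more than 1 number, which list the same 16 bases at the same position again with other barcodes. They are read here as repeats of one element, an assumption, since only the 16 bases and the position are in the names. Site 592 (chr6:92800043-92800058) had a difference of 1.09, with a native level of 0.81 and an altered level of -0.28. Its repeat, site 218, had 0.70, with levels of 0.65 and -0.05. Site 431 (chr7:136422975-136422990) had a difference of 0.94, with levels of 0.33 and -0.60, and its repeat, site 177, had 0.08, with levels of -0.30 and -0.38. The first of these members was thus read again just under the threshold and the second near 0. Over 25 numbers at 10 such places, the pooled SD of the difference between repeats was 0.29 (15 degrees of freedom).

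PPARγ ChIP of the pool 1 plasmids is a measurement independent of the activity difference, made in separate libraries. Binding was computed as activity was, from ChIP over input counts of each element. Both forms of 20 members were in the ChIP table, only 1 form of 3 members and neither form of 15, while both forms were present for 404 of 737 measured c sites. Binding was higher in the native form at 16 of these 20 members (80%), against 247 of 404 c sites (61.1%), and higher by 0.75 or more at 10 of 20 (50%), against 97 of 404 (24.0%). The median difference in binding was 0.76 at members and 0.24 at all c sites. At sites with both forms, native binding had a median of 0.19 at members and -0.005 at all c sites, and altered binding -0.39 and -0.18. Over every listed element, native binding had medians of 0.02 (21 members) and 0.01 (439 c sites), and altered binding -0.66 (22 members) and -0.19 (420 c sites). The native median of members ran from 0.01 to 0.45 over the processing alternatives. With 1 ChIP library these shares have no test. Of the 13 c sites with activity differences of -0.75 or less, 6 had both forms, with a median binding difference of 0.50 and higher native binding at 4.

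Site 501, whose motif has 1 mismatch, had the largest difference in binding, 2.21 (counting SE 0.14), from 1048 ChIP and 260 input counts in the native form and 433 and 500 in the altered form. Its activity difference was 0.98, with native barcodes from -1.01 to 1.04 (median 0.46) and altered barcodes from -1.32 to -0.06 (median -0.52). Site 529 had a binding difference of 1.59 (SE 0.09), from 2237 and 880 native counts and 973 and 1153 altered counts. Site 687 had 1.503 (SE 0.09), from 2133 and 1133 native counts and 606 and 913 altered counts. On the log2 scale, where 0 is the library average, the native forms of these sites bound at 1.48, 0.82 and 0.39. Their altered forms were under that average, at -0.73, -0.77 and -1.12. Sites 100, 538 and 609 were close to them at 1.46, 1.46 and 1.43.

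The 2 largest activity differences in pool 1 differed in binding. Site 142 bound more in the native form by 0.93 (SE 0.19), from 501 ChIP and 206 input counts against 202 and 159 in the altered form. Site 46 bound less in the native form, at -0.67 (SE 0.16), from 581 and 502 counts against 357 and 194. Both have 5 mismatches to the DR1 consensus. The other low binding differences were -0.25 (SE 0.15) at site 604 and -0.06 (SE 0.09) at site 750. The fourth member below 0 was site 191, at -0.0006 (SE 0.14). The member with the most active native form, site 356, had native binding of -0.86 and altered binding of -1.45, so both of its forms were under the library average in the ChIP.

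The w site of each member's number carried the same 16 bases elsewhere in the genome. It had a median activity difference of 0.59 at the 38 members' numbers and 0.52 over 720 numbers of measured c sites. The difference was 0.75 or more at 17 of 38 (44.7%), against 270 of 720 (37.5%), and above 0 at 33 of 38, against 601 of 720. The native w form had a median of 0.35 at members' numbers and 0.10 over all numbers. With the members and the w levels both taken from counts summed over barcodes, the median at members' numbers was -0.00243. With members taken at a c difference of 1 or more (17 sites), the median w difference at their numbers was 1.10. The c and w elements share the pool 1 libraries.

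The largest w differences at members' numbers were at sites 100, 142 and 4. The w site of number 100 (chr19:38841002-38841017) had a native level of 3.60 (barcodes 1.81 to 4.05) and an altered level of 0.22 (barcodes -0.36 to 0.98), a difference of 3.38. The c site of that number had 0.77, with a native level of -0.31. For number 142 the w site (chr3:30881176-30881191) gave 2.94, from 2.70 (barcodes 1.30 to 3.36) and -0.24 (barcodes -1.41 to 0.39). For number 4 the w site (chr3:96359334-96359349) gave 2.73, from 1.97 (barcodes 0.35 to 2.50) and -0.76 (barcodes -1.25 to -0.39). The forms did not overlap at any of the 3 w sites, which were picked for their large differences. The share of all w sites without overlap was not computed, so this is a description.

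At the other end, the w sites of numbers 501, 703 and 687 gave -0.13, -0.04 and -0.03, with native levels of -0.35, -0.32 and -0.53. The c sites of these numbers gave 0.98, 0.82 and 0.86. At number 356 the w site gave 0.20 with a native level of -0.57, against 1.45 and 1.54 at the c site. The barcodes of the 2 forms overlapped at these 4 numbers at both the c and the w site, and the c differences are the values that chose the members.

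Binding at the w sites of members' numbers was measured in both forms for 31 numbers. It was higher in the native form at 29 of 31, against 402 of 541 w sites (74.3%), and by 0.75 or more at 17 of 31 (54.8%), against 181 of 541 (33.5%). The median difference was 0.86, against 0.43 over 533 numbers of measured c sites, with native w binding of 0.74 against 0.30 and altered w binding of -0.15 against -0.16. Number 501 bound more in the native form at its w site too, by 0.98, although the w activity difference was -0.13. The c and w elements share the ChIP libraries and, by number, the motif.

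Match to the DR1 consensus was counted as mismatches over its 12 fixed bases, at the best position on either strand. In pool 1 the members had 1 to 5 mismatches, with a median of 3, as over all c sites. Up to 2 mismatches occurred in 9 of 38 members (23.7%) and 135 of 737 c sites (18.3%), and 4 or more in 12 of 38 (31.6%) and 357 of 737 (48.4%). A perfect first AGGTCA was found in 4 members (10.5%), against 33 c sites (4.48%), and a perfect second one in 5 (13.2%), against 101 (13.7%). The 3 c sites of pool 1 with a perfect DR1 were not members, and are too few to set against the 5.16% of all c sites.

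Sites 35, 501 and 494, the 3 pool 1 members with 1 mismatch, had differences of 1.10, 0.98 and 0.78. The 6 members with 5 mismatches were sites 142, 46, 166, 335, 275 and 82, with differences of 2.23, 1.81, 1.12, 1.01, 0.96 and 0.82. All of these values are bounded below by the threshold that chose the members. In pool 3 up to 2 mismatches occurred in 33 of 283 members (11.7%) and 137 of 1292 c sites (10.6%), and 4 or more in 189 (66.8%) and 851 (65.9%). There too the median was the same in members and all c sites, at 4. The 3 perfect matches in pool 3 were not members, and are too few to set against the 21.9% of all c sites. The largest differences among the 11 pool 3 members with 1 mismatch were 3.68, 2.09 and 1.96, at sites 480, 1331 and 1216. The largest among the 20 with 6 mismatches were 2.73, 2.54 and 1.79, at sites 1175, 312 and 995.

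In pool 3, 94 measured c sites shared their 16 bases with another c site, in 30 sequences. Of these 94 sites 26 were members, against 283 of all 1292 c sites (21.9%). At least 1 member was found in 18 of the 30 sequences, and every site was a member in 4. How many sequences would hold a member at the overall share was not computed. Sites 488 and 516 carry the same 16 bases and were both members with high native levels: site 516 had a native median of 1.84 (range -1.91 to 2.94, n = 15) and an altered median of -0.65 (range -3.33 to 3.67, n = 14), a difference of 2.49. The motif of site 935 occurred at 3 other c sites, where the differences were 0.69 (site 12), -0.10 (site 1463) and -0.41 (site 1139), with native levels of -0.20, -2.11 and -1.05 against 2.20 at site 935. The motif of site 480 occurred at site 981 with a difference of -1.40, against 3.68. Identical 16 bases thus occurred both at members and at c sites with differences near or below 0. What part the spread between readings has in this was not tested.

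The motifs of sites 488, 516 and 935, printed above, are closer to a direct repeat with 2 bases between the AGGTCA copies (2 mismatches) than to DR1 (4 mismatches), which was looked at after their values were seen. A repeat spaced by 2 bases is known as a retinoic acid receptor element. Of 58 pool 3 c sites closer to that spacing than to DR1, 14 were members (24.1%), near the 21.9% of all c sites, and their median difference was 0.03, against 0.10. Native levels above 0 were measured at 5 of the 58, against 53 of 1292 c sites (4.10%). The 5 include the 3 sites whose high native levels prompted the look, so this count is a description only.

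Of the pool 1 members' motifs, 4 occurred again in pool 3. That of site 20 occurred at a pool 3 w site (number 129, chr16:90197717-90197732), where the native level was 2.64, the altered level 0.19 and the difference 2.45, against a difference of 0.90 at the pool 1 c site. Those of sites 26, 638 and 750 occurred at pool 3 c sites 1067, 567 and 863, with differences of 0.13, -0.30 and 0.23. The recurrence in w surroundings passed 0.75 and the 3 in c surroundings did not. The motif of site 20 is also at the pool 1 w site of number 20, where the difference was only 0.17 (native level -0.28). Over all of pool 3, 39.3% of w sites and 21.9% of c sites were at 0.75 or more. The 4 recurrences are too few to set against these shares, and a difference between w and c surroundings was not tested.

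Pool 2 combined the motifs and the surroundings of 25 w sites of pool 1, of which 4 (46, 100, 142 and 638) have the numbers of members. In the names the first number was taken as the surroundings and the second as the motif, an assumption that no label states. In their own w surroundings these motifs gave native levels of -1.03 (SD over 20 barcodes 1.36), 1.42 (SD 0.48), 0.74 (SD 0.46) and 0.71 (SD 0.91). They exceeded the form labelled mut by 1.59, 3.44, 2.91 and 1.80. Over all 25 motifs in their own surroundings this difference ran from -1.49 to 3.44. Values of 2.84, 2.63 and 2.07 occurred at motifs without a member's number, so large differences were not particular to members. Placed in the other 24 surroundings, the 4 motifs had mean activities of -0.60, -0.58, -0.57 and -0.51 (SD over surroundings 1.24 to 1.40), at ranks 17, 16, 15 and 8 of the 25 motifs, whose means ran from -1.61 to -0.31. The 4 motifs were thus in the middle of the 25. Since the motifs were placed in nearly the same surroundings, the SD over surroundings does not measure the precision of differences between motifs. These differences were not tested.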

How the data were processed

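The authors deposited read counts, per barcode for the reporter libraries of pools 1 to 3 and per element for the pool 1 ChIP and its input. The submitters' processing notes name build mm9 and BWA 0.7.12, and how barcodes were counted is not given in the sources used here. Site positions and motifs come from the element names, and positions were counted from 1. Genes near the sites were not analysed here. Activity, binding and motif mismatches were computed with Python 3.11.15, numpy 2.4.6 and pandas 2.3.3, and the activity step was tested on simulated data. The simulation used the same spread over barcodes in both pools. It was not set to the wider spread measured in pool 3, so it does not test precision there. ChIP input counts were 101 or more in every listed element. Each library was made once, so no test was run and results are counts and medians set beside all c sites.

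The members and lists were chosen with earlier results of these data known. Sites were named by rule: the 12 (pool 1) and 10 (pool 3) largest differences, the 3 members nearest the threshold and the 3 c sites just under it, the members without barcode overlap, the 3 closest and 3 most distant motif matches (ties by larger difference), the 3 highest and lowest binding and w differences, and members in pool 2. The other sites named (in pool 1 sites 20, 82, 177, 191, 218, 275, 335, 431 and 538, and in pool 3 sites 12, 129, 252, 516, 567, 863, 981, 1067, 1139 and 1463) were chosen after their values were seen. The pool 2 ChIP and pools 4 to 7 were not used here. Alternatives changed the plasmid minimum, the pseudocount, the summary over barcodes, the barcodes needed, the threshold, the input minimum and the mismatch count.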

Additional observations from a re-analysis of the deposited data

How the results depend on the processing

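Over 118 values, 112 stayed within the spread (or within 1.5 times the count), 5 moved and 1 changed sign. For a median this spread was the SD over the values summarised, not the error of the median, so large shifts could count as stayed. The pool 3 native level was counted so at -0.07, against -0.71 in the main setting (SD 0.79). The pool 1 count of 38 ran from 17 (threshold 1) to 52 (counts summed over barcodes), and 20 of those 52 were among the 38. The pool 3 count of 283 ran from 161 (at least 100 plasmid counts per barcode) and 167 (counts summed) to 345 (3 barcodes a form). A difference of 0.75 or more held under all 8 settings of activity for 15 of 38 pool 1 members, sites 142, 46, 356, 609 and 529 among them, and for 43 of 283 pool 3 members, sites 1401, 935, 488, 516, 252 and 959 among them. The median difference in unused barcodes, with the values of the 2 choices pooled, ran from 0.21 to 0.37 in pool 1 and from 0.11 to 0.28 in pool 3. The median binding difference ran from 0.66 to 0.80, and the median native level from 0.13 to 0.57 in pool 1 and from -0.90 to -0.07 in pool 3. The w difference at members' numbers ran from 0.47 to 1.10 (threshold 1), and the native w level from -0.00243 (counts summed, the value that changed sign) to 0.71. The cause was not tested. Counting mismatches in the better AGGTCA copy alone gave a median of 1 in both pools, since it compares fewer bases. No paired analysis was possible because each group has 1 library, and for the same reason no library could be left out. Altered forms of pool 3 members had a median of 1833 plasmid counts, which limits the precision of single sites.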
